A study of Mus musculus with 12 samples.

Results

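The 9 genes described here encode coinhibitory and checkpoint receptors of T cells, with the activating rival *Cd226* among them: *Pdcd1* (PD-1), *Lag3*, *Btla*, *Vsir* (VISTA), *Havcr2* (TIM-3), *Tigit*, *Cd96*, *Cd226* (DNAM-1) and *Cd160*. They were taken by symbol from a table of 49585 genes, and all 9 passed the filter on low counts that left 13118 genes for testing. RNA had been sequenced from CD4+ and CD8+ LN T cells of B6 (C57BL/6) mice and from CD8.1 cells and CD8.2 cells of the LNs of CD8Dual mice (labelled 8in4), with 3 samples in each of the 4 groups. In the engineered CD8Dual mice, helper lineage cells carry CD8.1, a CD8 co-receptor expressed from the *Cd4* locus instead of CD4, and cytotoxic lineage cells carry CD8.2, which comes from the normal *Cd8* locus. The labels describe male mice aged 6 to 10 weeks and T cells sorted as TCRβ+ CD62L+, pooled before RNA extraction. The methods of the study add a CD44− gate that the labels do not name. Nothing states that the samples of a group came from separate mice, so P values measure the spread between these samples, which may be partly technical. The comparisons asked whether each receptor gene followed the helper or cytotoxic lineage in each strain, and whether it differed between strains within a lineage.

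Coinhibitory receptors are surface proteins that dampen signals from the T cell receptor, and many are induced when a T cell is activated. PD-1, BTLA and TIGIT carry tyrosine motifs in their tails that recruit phosphatases such as SHP-1 and SHP-2. LAG-3 binds MHC class II, and VISTA is among those made by resting T cells. TIGIT, CD96 and CD226 compete for nectin and nectin-like ligands, chiefly CD155 (encoded by *Pvr*), with CD226 delivering the activating signal. BTLA and CD160 share the ligand HVEM (*Tnfrsf14*). Regulatory T cells are known for high TIGIT, PD-1 and CTLA-4.

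The 250 bases before the RefSeq start sites (GRCm38.p6) are shown for 4 genes. Capitals mark the RUNX core, TGTGGT or its reverse complement ACCACA, and each run reads 5′ to 3′ on the gene's strand, here the minus strand for all 4. The *Pdcd1* window is chr1:94052554-94052803, the *Tigit* window chr16:43664185-43664434, the *Cd96* window chr16:46120249-46120498 and the *Cd160* window chr3:96829352-96829601.
Pdcd1: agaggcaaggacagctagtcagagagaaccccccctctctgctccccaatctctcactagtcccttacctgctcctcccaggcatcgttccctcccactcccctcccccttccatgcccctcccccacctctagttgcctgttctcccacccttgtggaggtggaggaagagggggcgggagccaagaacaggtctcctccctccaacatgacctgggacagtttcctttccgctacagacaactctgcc
Tigit: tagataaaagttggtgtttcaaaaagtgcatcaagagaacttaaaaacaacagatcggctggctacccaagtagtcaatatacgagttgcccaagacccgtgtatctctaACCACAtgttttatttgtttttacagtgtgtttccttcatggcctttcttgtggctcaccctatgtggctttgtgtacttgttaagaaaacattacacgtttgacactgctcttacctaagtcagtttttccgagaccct
Cd96: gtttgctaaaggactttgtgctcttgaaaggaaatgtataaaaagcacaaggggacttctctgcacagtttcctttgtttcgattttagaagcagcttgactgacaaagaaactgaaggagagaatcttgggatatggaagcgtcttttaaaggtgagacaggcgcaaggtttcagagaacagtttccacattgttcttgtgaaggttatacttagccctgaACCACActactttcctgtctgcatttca
Cd160: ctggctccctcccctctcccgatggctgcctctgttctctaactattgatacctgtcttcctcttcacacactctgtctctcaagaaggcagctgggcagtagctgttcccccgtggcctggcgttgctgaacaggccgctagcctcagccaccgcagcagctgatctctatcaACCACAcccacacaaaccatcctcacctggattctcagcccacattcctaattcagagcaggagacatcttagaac
The core lay 140 bases upstream of the start in *Tigit*, 28 in *Cd96* and 76 in *Cd160*, and the *Pdcd1* window held none. The 8 windows searched came from 7 members, with both start sites of *Cd160* counted. Of these windows, 6 held the core (*Btla*, *Havcr2*, *Tigit*, *Cd96* and both of *Cd160*), against 14% of 32851 promoters of the same length. In CD8Dual mice *Btla*, *Havcr2* and *Tigit* were higher in the helper lineage, and *Cd96* and *Cd160* in the cytotoxic lineage. Genes with the core thus lay on both sides, and a part of the core in their levels was not tested. A T-box core (AGGTGT or ACACCT) was found in 0 of the 8 windows, against 11.8% of all promoters. An NFAT core (GGAAAA or TTTTCC) was found in 1 of the 8, that of *Tigit*, against 20.4%. Both strands were searched, motifs that overlapped were counted separately, and a match of letters is a description and not a binding site. No window is shown or counted for *Lag3* or *Cd226*.

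In the same build, with GENCODE M21 gene models, *Lag3* spans chr6:124904361-124911705 on the minus strand, *Btla* chr16:45224315-45257670 on the plus strand, *Vsir* chr10:60346851-60372684 on the plus strand and *Havcr2* chr11:46454935-46481255 on the plus strand. *Tigit* (chr16:43648867-43664146) and *Cd96* (chr16:46035657-46120251) lie on the minus strand of chromosome 16, where *Btla* also lies, and *Pdcd1* spans chr1:94038305-94052553 on the minus strand. *Cd160* (chr3:96798763-96829351, minus strand) shares exonic bases with *Pdzk1* on the other strand. Use of strand in counting is not given in the sources used here, so reads from this pair cannot be told apart.

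Depth was 18667474 to 37110502 counts per sample, and a count of 3, the smallest value taken as detectable, lay between 0.0874 and 0.167 CPM (the gene's counts relative to library size, with TMM factors). These floors allow for counting error alone, as reads copied by PCR do not stand for separate molecules. CD8.2 replicate 3 was the deepest sample and stood apart in that *Gm42418* was its most counted gene, at 3.14% of counts. The co-receptor genes and lineage factors were read in the sorted cells. *Cd4* was at 907 to 1003 CPM in B6 CD4+ samples, 47.1 to 51.4 CPM in CD8.1 samples and at most 1.79 CPM in the others. *Cd8a* was at 1389 to 1491 CPM in B6 CD8+ and CD8.2 samples. It was at 179 to 201 CPM in CD8.1 samples and 0.682 to 1.49 CPM in B6 CD4+ samples. *Zbtb7b* (ThPOK) was at 117 to 173 CPM in B6 CD4+ and CD8.1 samples and 0.690 to 2.11 CPM in B6 CD8+ and CD8.2 samples. *Runx3* was at 97.5 to 105 CPM in B6 CD8+ and 70.5 to 77.2 CPM in CD8.2 T cells, above the 35.9 to 67.2 CPM of the helper lineage samples. The naive T cell list (10 genes) summed to 6978 to 8117 CPM in all samples.

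Compared per length (CPM per kilobase of merged exons), *Cd96* was the most abundant member in every group, at 134 in B6 CD8+ and 99.2 in B6 CD4+ T cells and at 127 for CD8.2 against 99.6 for CD8.1. *Vsir* came second at 75.6 to 87.5 CPM per kilobase, and *Havcr2* was last at 0.0221 to 0.292. The order in between depended on lineage. *Btla* was the third in both helper groups, whereas *Cd226* was the third in both cytotoxic groups, ahead of *Btla*. *Tigit* stood next after *Btla* in CD8.1 T cells, at 17.6 CPM per kilobase, and near the bottom of the order in CD8.2 T cells, at 1.48.

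**Figure D1:**
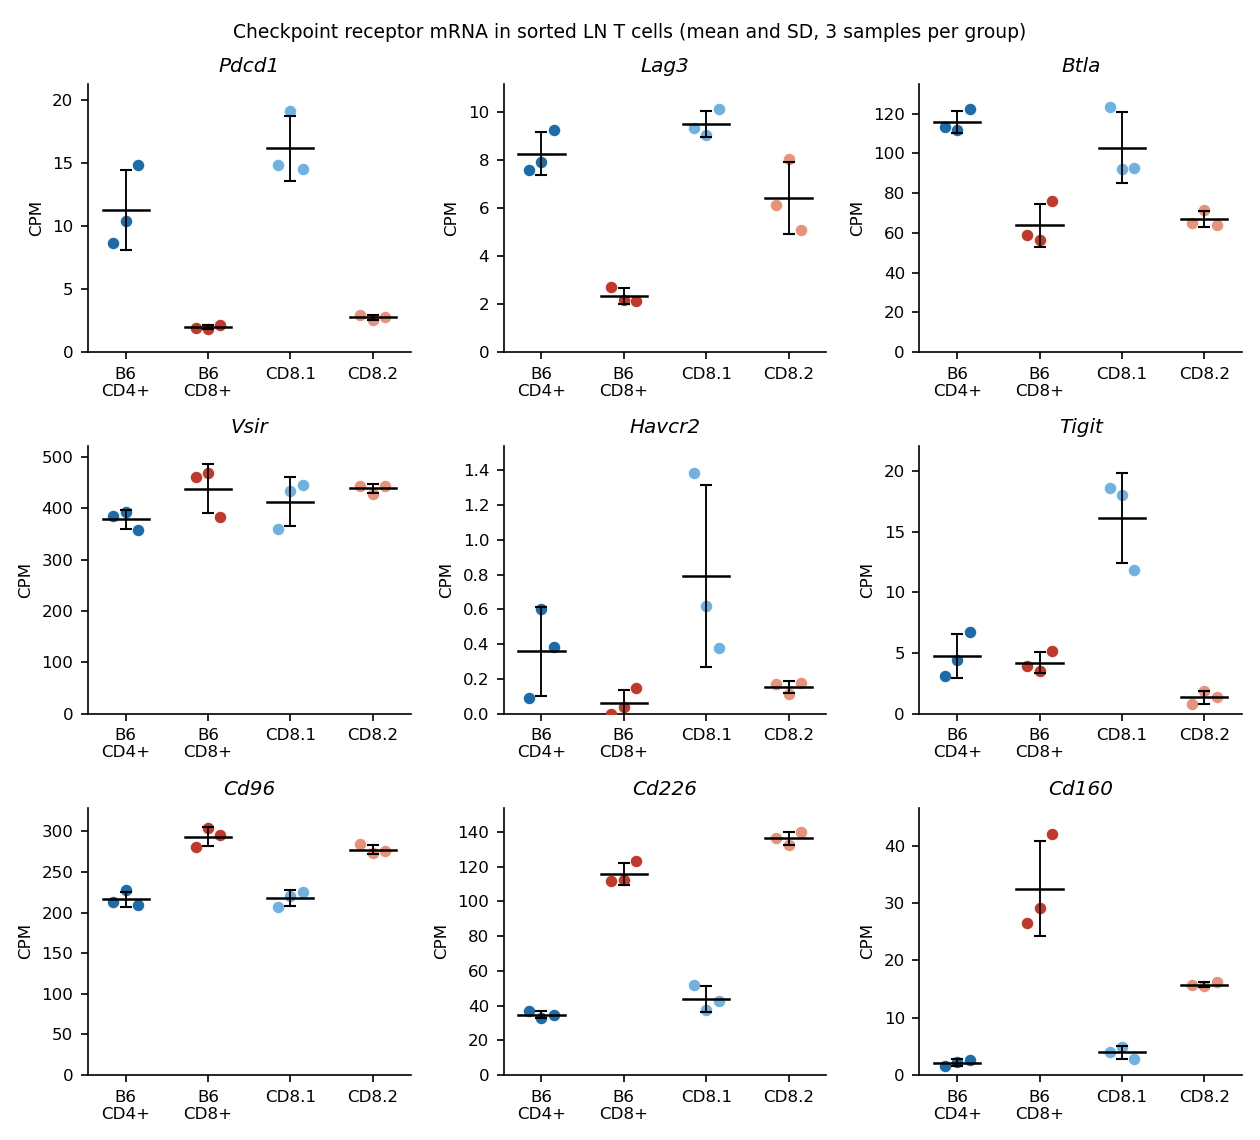
Expression of the 9 receptor genes in CPM (y axis, linear, a separate scale for each gene) in the 4 groups (x axis). Points are samples, lines are group means and bars the SD of 3 samples. *Pdcd1* and *Btla* are high in both helper groups, *Cd226*, *Cd96* and *Cd160* in both cytotoxic groups, and *Tigit* rises above the rest in CD8.1 T cells, with a mean of 16.1 CPM.

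Most of the receptor genes differed between lineages, and did so in both strains. In B6 mice, *Pdcd1*, *Lag3* and *Btla* were higher in CD4+ T cells and *Cd96*, *Cd226* and *Cd160* higher in CD8+ T cells, so that 6 of 9 members passed an adjusted P of 0.05 in the quasi-likelihood test of edgeR with P values adjusted by Benjamini-Hochberg. The background was 23.1% of all tested genes, 11.4% higher and 11.7% lower. In CD8Dual mice 8 of 9 passed, where *Pdcd1*, *Lag3*, *Btla*, *Havcr2* and *Tigit* were higher in CD8.1 T cells and *Cd96*, *Cd226* and *Cd160* higher in CD8.2 T cells, against a background of 28.7% (14.9% higher and 13.8% lower). The samples of the lineages did not overlap for 6 members in B6 mice (39% of all tested genes) and for 8 in CD8Dual mice (40.7%). By the limits of the study, a change over 5-fold with an unadjusted P under 0.05, 3 members qualified in B6 mice (*Pdcd1*, *Havcr2* and *Cd160*, background 3.29%) and 2 in CD8Dual mice (*Pdcd1* and *Tigit*, background 3.32%). *Havcr2*, which is among these counts, reached the filter's minimum count of 10 in helper samples only. It thus entered the tests through the groups where it was high, and adds no support to the counts.

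**Figure D2:**
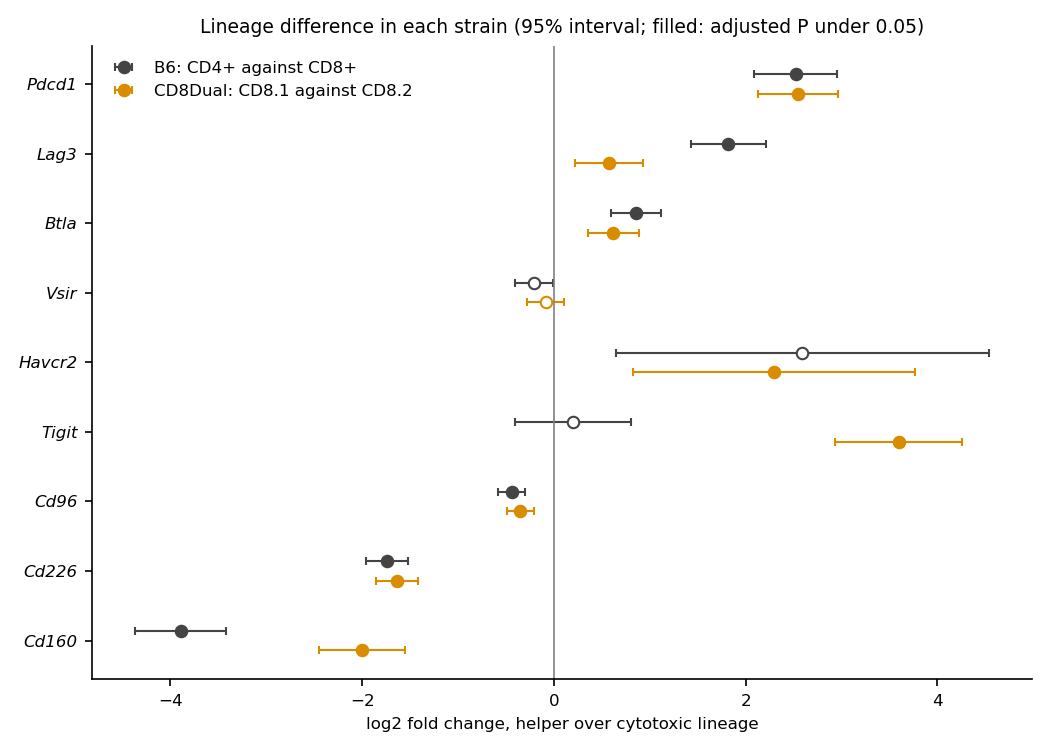
Log2 fold change of each member between lineages (x axis, helper over cytotoxic), in B6 mice (dark) and CD8Dual mice (orange), with the 95% interval from the fit as bars. Filled points passed an adjusted P of 0.05. The strains lie together for *Pdcd1*, *Btla*, *Cd96* and *Cd226* and apart for *Tigit* (0.20 and 3.60), *Cd160* (−3.89 and −2.00) and *Lag3* (1.82 and 0.58).

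Whether the lineage change itself differed between the strains was tested as an interaction. It passed for *Tigit*, *Cd160* and *Lag3*, 3 of 9 members, against a background of 1.87% of tested genes (1.58% higher and 0.29% lower). Between lineages of the same kind, *Tigit*, *Cd226* and *Cd160* were higher in CD8.1 T cells than in their B6 CD4+ counterparts, 3 members against a background of 12.8% (6.94% higher and 5.82% lower). In CD8.2 against B6 CD8+ T cells *Lag3* was higher and *Tigit* and *Cd160* lower, also 3 members, against 7.94% (3.29% higher and 4.66% lower). The samples did not overlap for 3 members in the helper comparison (background 25.5%) and for 5 in the cytotoxic comparison (36.3%), where *Pdcd1* and *Cd226* were the other two. The 5-fold limits were met by 0 members in either, against 0.61% and 0.579% of genes, and in the interaction by *Tigit* alone, against 1.16%. These comparisons share samples with the lineage comparisons and are not independent of them.

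**Figure D3:**
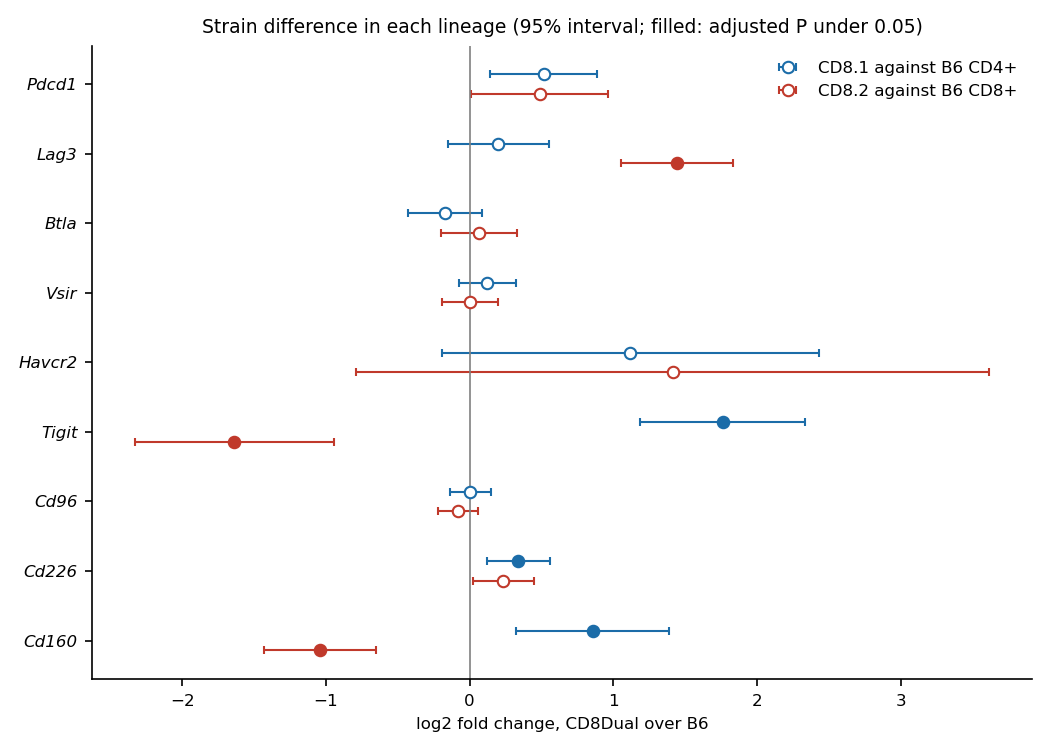
Log2 fold change of each member between strains (x axis, CD8Dual over B6), for the helper lineage (CD8.1 against B6 CD4+, blue) and the cytotoxic lineage (CD8.2 against B6 CD8+, red), with 95% intervals. Filled points passed an adjusted P of 0.05. *Tigit* (1.76 and −1.64) and *Cd160* (0.86 and −1.04) moved in opposite directions in the 2 lineages, and *Cd96* lay near 0 in both.

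*Pdcd1*, which encodes the receptor for PD-L1 and PD-L2, differed between lineages by nearly the same factor in both strains. B6 CD4+ samples held 8.63, 10.4 and 14.8 CPM and B6 CD8+ samples 1.92, 1.82 and 2.16 CPM. CD8.1 samples held 14.8, 19.1 and 14.5 CPM and CD8.2 samples 2.94, 2.55 and 2.74 CPM. Every helper sample was above every cytotoxic sample, in either strain. The log2 fold change was 2.52 (SE 0.205, adjusted P = 1.75e-07, edgeR) in B6 mice and 2.55 (SE 0.196, adjusted P = 1.03e-07, edgeR) in CD8Dual mice, and the difference between these was 0.03 with a 95% interval of −0.60 to 0.65. In bulk RNA, fewer cells of a type and less RNA per cell cannot be told apart, here and for every member. CD8.1 T cells were 0.52 above B6 CD4+ T cells on the log2 scale (adjusted P = 0.0634, edgeR) with overlapping samples, and this passed without B6 CD4 replicate 3 (0.74, adjusted P = 0.00784, edgeR) or without CD8.1 replicate 1 (0.56, adjusted P = 0.048, edgeR). The helper strain difference also passed with no filter on low counts (0.51, adjusted P = 0.0187, edgeR). CD8.2 T cells lay above B6 CD8+ T cells by 0.49 with no overlap (adjusted P = 0.198, edgeR).

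Markers of regulatory T cells moved with *Pdcd1* between lineages. Of 12, 10 were higher and 1 lower in B6 CD4+ than B6 CD8+ T cells, and 11 were higher and 1 lower in CD8.1 than CD8.2 T cells. Of all tested genes, 23.1% and 28.7% were called. *Foxp3* averaged 38.3 and 0.332 CPM in the B6 groups and 140 and 1.24 CPM in the CD8Dual groups. The summed level of all 12 did not separate the B6 lineages (271 to 386 CPM and 339 to 375 CPM), where *Itgae* is abundant in CD8+ T cells, and was 684 to 748 CPM in CD8.1 against 199 to 203 CPM in CD8.2 T cells. Follicular helper markers, a list of 7 that holds *Pdcd1* itself, had 4 of 6 tested genes higher and 1 lower in the helper lineage of either strain. Their sums were 118 to 138 CPM against 103 to 118 CPM in B6 mice, where they overlapped, and 151 to 178 CPM against 138 to 150 CPM in CD8Dual mice. The part of such cells in the *Pdcd1* result was not tested.

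*Lag3*, whose product binds MHC class II, separated the B6 lineages widely and the CD8Dual lineages narrowly. It was at 7.59, 7.93 and 9.27 CPM in B6 CD4+ T cells and at 2.70, 2.18 and 2.12 CPM in B6 CD8+ T cells. In CD8.1 T cells it was at 9.35, 9.06 and 10.1 CPM and in CD8.2 T cells at 6.13, 8.05 and 5.10 CPM. CD8.2 samples stood above every B6 CD8+ sample, and 1 of them reached into the range of B6 CD4+ samples. The lineage change was 1.82 (SE 0.182, adjusted P = 1.96e-06, edgeR) in B6 mice and 0.58 (SE 0.166, adjusted P = 0.0167, edgeR) in CD8Dual mice, an interaction of −1.24 (SE 0.246, adjusted P = 0.0131, edgeR). The gap had narrowed on the cytotoxic side, where CD8.2 T cells were 2.72-fold higher than B6 CD8+ T cells (95% interval 2.07 to 3.57, adjusted P = 0.000277, edgeR). On the helper side CD8.1 T cells were 1.15-fold the level of B6 CD4+ T cells (interval 0.903 to 1.47, adjusted P = 0.449, edgeR). The call in CD8Dual mice was lost without CD8.2 replicate 1 (0.54, adjusted P = 0.0667, edgeR), without CD8.2 replicate 3 (0.42, adjusted P = 0.11, edgeR) or without CD8.1 replicate 3 (0.53, adjusted P = 0.0565, edgeR). Among genes that moved beside it, *Ctla4* was 1.16 CPM in B6 CD8+ and 4.04 CPM in CD8.2 T cells (log2 fold change 1.79), and their part in the *Lag3* result was not tested.

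*Btla* encodes an HVEM receptor of resting T and B cells and had a smaller lineage difference. B6 CD4+ samples held 113, 112 and 122 CPM and B6 CD8+ samples 59.2, 56.3 and 76.2 CPM. CD8.1 samples held 124, 92.4 and 92.5 CPM and CD8.2 samples 65.0, 71.6 and 64.1 CPM. Helper samples were the higher in both strains, without overlap. The log2 fold change was 0.86 (SE 0.123, adjusted P = 8.08e-05, edgeR) in B6 mice and 0.62 (SE 0.123, adjusted P = 0.00147, edgeR) in CD8Dual mice. Neither strain comparison passed, at −0.17 in the helper lineage (−0.34, adjusted P = 0.0356 by edgeR, without CD8.1 replicate 1) and 0.07 in the cytotoxic lineage. B cell markers moved with it in part. In B6 mice 6 of 10 were higher and 2 lower in CD4+ T cells (background 23.1%), and in CD8Dual mice 3 of 10 were higher in CD8.1 T cells (28.7%). *Cd79a* averaged 23.9 CPM in B6 CD4+ and 12.4 CPM in B6 CD8+ T cells, and 45.9 CPM in CD8.1 against 24.4 CPM in CD8.2 T cells. The B cell list summed to 548 to 588 CPM (B6 CD4+), 638 to 665 CPM (B6 CD8+), 668 to 810 CPM (CD8.1) and 599 to 699 CPM (CD8.2), most of it *Ighm*. The part of such cells in the *Btla* values was not tested.

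*Vsir* encodes VISTA, and its group means lay within 379 to 439 CPM. It was at 385, 394 and 358 CPM in B6 CD4+ and at 462, 470 and 384 CPM in B6 CD8+ T cells. CD8.1 samples held 359, 435 and 446 CPM and CD8.2 samples 444, 428 and 444 CPM. All 4 groups overlapped their neighbours in rank. The lineage change was −0.21 (95% interval −0.41 to −0.01, adjusted P = 0.124, edgeR) in B6 mice and −0.09 (interval −0.28 to 0.11, adjusted P = 0.521, edgeR) in CD8Dual mice, and no comparison passed. The B6 difference did pass without B6 CD8 replicate 3 (−0.30, adjusted P = 0.0266, edgeR) or without CD8.1 replicate 1 (−0.21, adjusted P = 0.0382, edgeR).

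*Havcr2* encodes TIM-3, typical of activated and effector T cells and of myeloid cells, and was barely detected. Its counts were 2, 14 and 9 in B6 CD4+ samples, 0, 1 and 3 in B6 CD8+ samples, 29, 14 and 8 in CD8.1 samples and 4, 2 and 6 in CD8.2 samples. Only helper samples reached the filter's minimum count of 10. *Havcr2* thus entered the tests through the groups where it was high, and it was not tested with a mean of at least 1 CPM. CD8.1 samples lay above all CD8.2 samples, while the B6 groups overlapped. Pooled over samples and scaled for depth, the ratio of CD8.1 to CD8.2 was 4.98 (exact 95% interval 2.62 to 10.3, counting error only) and that of B6 CD4+ to CD8+ was 6.61 (2.28 to 26.2). The fit across all genes gave 2.30 (SE 0.690, adjusted P = 0.0212, edgeR) in CD8Dual mice and 2.59 (SE 0.915, adjusted P = 0.0531, edgeR) in B6 mice. With the replicate number as a block, which pairs the B6 samples, the B6 value passed (2.59, adjusted P = 0.0336, edgeR). It also passed without B6 CD4 replicate 1 (3.03), B6 CD8 replicate 3 (3.90), CD8.1 replicate 1 or CD8.1 replicate 3 (each 2.59). The CD8Dual call was lost without CD8.1 replicate 1 (1.63, adjusted P = 0.0987, edgeR) or without any 1 of the 3 CD8.2 samples (2.16 to 2.41, adjusted P from 0.0666 to 0.0712, edgeR). Myeloid markers summed to 66.3 to 82.7 CPM (B6 CD4+), 81.4 to 85.1 CPM (B6 CD8+), 102 to 111 CPM (CD8.1) and 81.8 to 108 CPM (CD8.2), most of it *Cst3*, and their part in these few counts was not tested.

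*Tigit* had the largest strain difference of the 9 members in either lineage. B6 CD4+ samples held 3.09, 4.44 and 6.72 CPM and B6 CD8+ samples 3.89, 3.49 and 5.15 CPM. CD8.1 samples held 18.6, 18.0 and 11.9 CPM, whereas CD8.2 samples held 0.808, 1.89 and 1.37 CPM. The B6 lineages overlapped, all CD8.1 samples exceeded all others, and all CD8.2 samples were below all others. In B6 mice the lineage change was 0.20 (95% interval −0.41 to 0.80, adjusted P = 0.695, edgeR), and in CD8Dual mice it was 3.60 (SE 0.311, adjusted P = 4.71e-07, edgeR), a 12.1-fold difference. Between the strains the lineage change differed by 3.40 (SE 0.422, adjusted P = 0.000267, edgeR), a ratio of 10.5 with a 95% interval of 5.65 to 19.7. It arose on both sides. CD8.1 T cells were 3.39-fold above B6 CD4+ T cells (interval 2.27 to 5.05, adjusted P = 0.00104, edgeR) and CD8.2 T cells 3.11-fold below B6 CD8+ T cells (log2 fold change −1.64, SE 0.325, adjusted P = 0.0068, edgeR). The 3 calls and the interaction held under each of 18 or 19 other fits, including those without 1 sample.

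Regulatory T cell markers moved with *Tigit* in the helper lineage. *Foxp3*, the defining factor of regulatory T cells, was at 32.6, 37.7 and 44.5 CPM in B6 CD4+ samples and at 102, 149 and 168 CPM in CD8.1 samples. Of the 12 markers in the list, 11 were higher in CD8.1 T cells than in B6 CD4+ ones, against a background of 12.8%. Their sum, without the integrin *Itgae*, which is abundant in CD8+ T cells, was 268 to 381 CPM in B6 CD4+ and 653 to 720 CPM in CD8.1 T cells, against 104 to 111 CPM in B6 CD8+ and 97.3 to 104 CPM in CD8.2 T cells. None of the 12 was at 0 in any sample. In CD8.2 against B6 CD8+ T cells 2 of the 12 were higher, 2 lower and 8 not called. There *Foxp3* was 0.182 to 0.529 CPM in B6 CD8+ samples, at 5 to 11 counts, and 0.808 to 1.46 CPM in CD8.2 samples. *Gpr83* averaged 10.2 CPM in B6 CD8+ and 1.65 CPM in CD8.2 T cells. Markers of memory T cells moved with *Tigit* in the cytotoxic lineage, with 4 of 10 lower and 0 higher in CD8.2 T cells than in B6 CD8+ ones, among them *Ccl5* (121 and 25.1 CPM), and sums of 1162 to 1187 and 1716 to 2043 CPM. In CD8.1 against B6 CD4+ T cells 8 of the 10 were higher, with sums of 569 to 621 and 382 to 416 CPM. Backgrounds were 7.94% in the cytotoxic and 12.8% in the helper comparison. The part of these cells in the *Tigit* result was not tested.

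**Figure D4:**
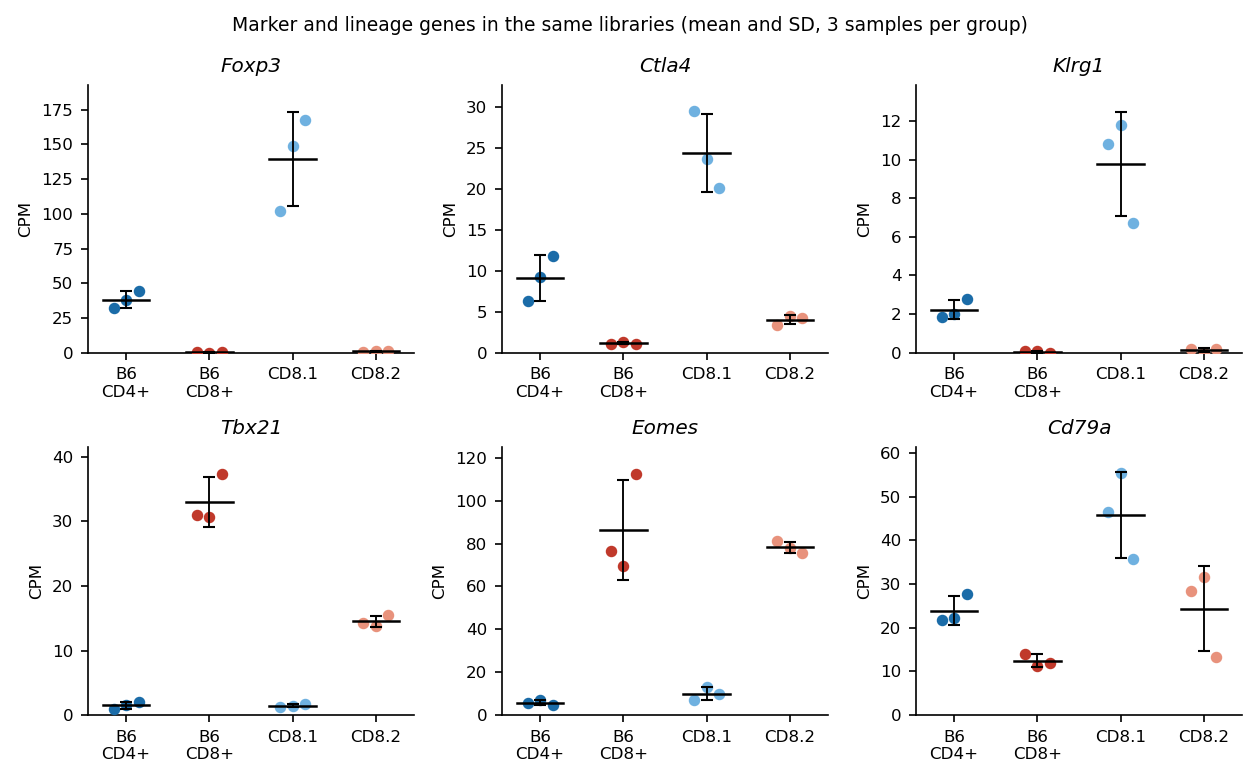
Marker and lineage genes in CPM (y axis, linear) in the same 12 samples by group (x axis), with group means and SD. *Foxp3*, *Ctla4* and *Klrg1* are highest in CD8.1 T cells, *Tbx21* is at 33.0 CPM in B6 CD8+ and 14.5 CPM in CD8.2 T cells, *Eomes* is high in both cytotoxic groups, and the B cell gene *Cd79a* is highest in CD8.1 T cells.

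*Cd226*, the activating rival of TIGIT, was a cytotoxic lineage gene in both strains. B6 CD4+ samples held 36.7, 32.9 and 34.6 CPM and B6 CD8+ samples 111, 112 and 123 CPM. CD8.1 samples held 51.9, 37.2 and 42.5 CPM and CD8.2 samples 136, 132 and 140 CPM. Each of the 4 groups was separate from the next, with both CD8Dual groups above their B6 counterparts. The lineage change was −1.74 (SE 0.103, adjusted P = 3.7e-09, edgeR) in B6 mice and −1.63 (SE 0.102, adjusted P = 9.95e-09, edgeR) in CD8Dual mice, differing by 0.10 (95% interval −0.20 to 0.40). The strain difference was 0.34 in the helper lineage (SE 0.103, adjusted P = 0.0429, edgeR) and 0.24 in the cytotoxic lineage (adjusted P = 0.158, edgeR). The first of these calls was lost in 13 of 19 alternatives (adjusted P 0.0136 to 0.191 over all 19, edgeR, limma-voom and DESeq2), among them the removal of any 1 sample other than CD8.1 replicate 2, with a change of 0.19 without CD8.1 replicate 1. The second passed without CD8.1 replicate 1 (0.24, adjusted P = 0.0311, edgeR).

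*Cd96*, the other receptor for CD155, was also higher in the cytotoxic lineage but by less. It was at 213, 227 and 210 CPM in B6 CD4+ and at 280, 304 and 296 CPM in B6 CD8+ T cells. CD8.1 samples held 207, 220 and 226 CPM and CD8.2 samples 284, 273 and 275 CPM. Lineages did not overlap and strains did. The log2 fold change was −0.44 (SE 0.0657, adjusted P = 0.000125, edgeR) in B6 mice and −0.35 (SE 0.0657, adjusted P = 0.000964, edgeR) in CD8Dual mice. Between strains it was 0.01 in the helper lineage (95% interval −0.13 to 0.15) and −0.08 in the cytotoxic lineage (−0.22 to 0.06).

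The balance of these rivals was read within each library as a log2 ratio of reads per kilobase, which needs no scaling between libraries. *Tigit* to *Cd226* was −0.52 ± 0.60 (SD, n = 3) in B6 CD4+ and −2.39 ± 0.22 in B6 CD8+ T cells, against 0.96 ± 0.40 in CD8.1 and −4.30 ± 0.63 in CD8.2. Per kilobase, *Tigit* exceeded *Cd226* in all 3 CD8.1 samples, although its raw counts there (250 to 407) were below those of the longer *Cd226* (841 to 1089). The lineages differed by 1.87 in B6 mice and by 5.25 in CD8Dual mice, a 38.1-fold difference, and no groups overlapped in the 4 comparisons made (exact two-sided permutation p = 0.1 each, the smallest that 3 against 3 allows, and 0.114 after Benjamini-Hochberg adjustment over the 8 comparisons of ratios). *Cd96* to *Cd226* was 3.80 ± 0.13 in B6 CD4+ and 2.51 ± 0.09 in B6 CD8+ T cells, against 3.48 ± 0.30 in CD8.1 and 2.19 ± 0.04 in CD8.2. Its lineage difference was 1.30 in either strain (exact permutation p = 0.1 each). It was lower in CD8Dual than in B6 mice by 0.32 in both lineages, with overlap in the helper lineage (exact permutation p = 0.2) and none in the cytotoxic lineage (exact permutation p = 0.1).

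**Figure D5:**
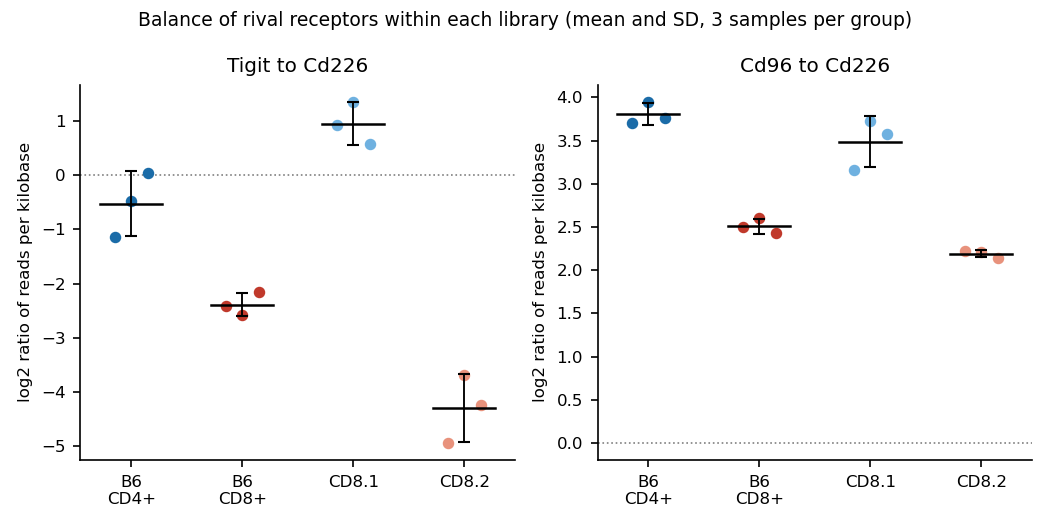
Log2 ratio of reads per kilobase (y axis) of *Tigit* to *Cd226* (left) and *Cd96* to *Cd226* (right) in each sample by group (x axis), with group means and the SD of 3 samples. A dotted line at 0 marks equal reads per kilobase. The *Tigit* ratio runs from −4.95 to −3.70 in CD8.2 samples to 0.57 to 1.37 in CD8.1 samples, and the *Cd96* ratio stays above 2 in all samples.

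*Cd160* encodes an HVEM receptor of cytotoxic T cells and NK cells. It was at 1.59, 2.24 and 2.68 CPM in B6 CD4+ and at 26.5, 29.1 and 42.0 CPM in B6 CD8+ T cells. CD8.1 samples held 4.05, 4.95 and 2.80 CPM and CD8.2 samples 15.7, 15.4 and 16.1 CPM. The 4 groups were separate from each other, and both CD8Dual groups lay between the B6 groups. The lineage change was −3.89 (SE 0.224, adjusted P = 2.53e-09, edgeR) in B6 mice (14.9-fold) and −2.00 (SE 0.210, adjusted P = 4.13e-06, edgeR) in CD8Dual mice. The interaction was 1.90 (SE 0.309, adjusted P = 0.00289, edgeR). CD8.2 T cells fell by 1.04 below B6 CD8+ T cells (SE 0.183, adjusted P = 0.00317, edgeR), which is 2.05-fold. CD8.1 T cells were 0.86 above B6 CD4+ T cells (SE 0.250, adjusted P = 0.0356, edgeR), and that call was lost without B6 CD4 replicate 1 (0.67), B6 CD4 replicate 2 (0.86), CD8.1 replicate 1 (0.82), CD8.1 replicate 2 (0.65) or CD8.2 replicate 1 (0.85), where the adjusted P was 0.0502 to 0.163 (edgeR).

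Markers of NK and NKT cells, which express *Cd160*, moved with it in part. Their 8 genes summed to 1.95 to 4.21 CPM in B6 CD4+ and 13.9 to 21.8 CPM in B6 CD8+ T cells, against 4.72 to 7.65 CPM (CD8.1) and 6.50 to 8.33 CPM (CD8.2) in CD8Dual mice. In CD8.2 against B6 CD8+ T cells 2 of the 6 tested were lower, 0 higher and 4 not called (background 7.94%). *Klre1* averaged 6.82 CPM in B6 CD8+ and 0.435 CPM in CD8.2 T cells, and *Tyrobp* 1.24 and 1.16 CPM. Between lineages 0 were higher and 3 lower in B6 CD4+ T cells (23.1%), and 1 higher and 2 lower in CD8.1 T cells (28.7%). In CD8.1 against B6 CD4+ T cells 2 were higher and 0 lower (12.8%). Of the defining genes, *Zbtb16* was at 0 in all 6 B6 samples, at 0.191 to 1.02 CPM in CD8.1 samples and at most 0.0426 CPM in CD8.2 samples. *Ncr1* did not exceed 0.345 CPM in any sample. Their part in the *Cd160* result was not tested.

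Genes for ligands and binding partners of the receptors were next examined as a list of 16, of which 11 could be tested. In B6 CD4+ against CD8+ T cells 3 were higher and 1 lower, and in CD8.1 against CD8.2 T cells 5 were higher and 0 lower, with medians of 0.53 and 0.99 on the log2 scale (medians of all tested genes 0.00 in both). Of all tested genes, 23.1% and 28.7% were called. *Pvr*, which encodes the CD155 bound by TIGIT, CD96 and CD226, averaged 40.4 CPM in B6 CD4+ and 13.8 CPM in B6 CD8+ T cells, and 27.7 CPM (CD8.1) and 14 CPM (CD8.2) in CD8Dual mice. It was thus a helper lineage gene like *Pdcd1*, and was lower in CD8.1 T cells than in B6 CD4+ ones (−0.54, adjusted P = 0.00377, edgeR), where *Tigit* was higher. *Nectin2* was listed at 0 in all cytotoxic samples and was near the floor in the helper groups, with a median of 0.0431 CPM and 1 sample at 0.636 CPM in B6 CD4+ T cells, and 0.0442 to 0.285 CPM in CD8.1 T cells. The PD-1 ligand *Cd274* averaged 24.9 to 30.3 CPM in the 4 groups and passed in no comparison. *Cd80*, a B7 protein that also binds PD-L1, was raised in CD8.1 T cells (1.31 CPM, against 0.13 CPM in B6 CD4+ and 0.121 CPM in CD8.2 T cells, log2 fold changes 3.28 and 3.70). *Cd80* held 1 to 7 counts in B6 CD4+ samples and 0 to 6 in CD8.2 samples, near the floor. The LAG-3 ligand *Lgals3* was higher in both helper groups than in the cytotoxic groups (3.04 in B6 mice and 3.14 in CD8Dual mice). *Cd200*, the ligand of the inhibitory receptor CD200R, was higher there too (2.15 and 2.23). *Tnfrsf14* (11 to 15.1 CPM) and the TIM-3 ligand *Lgals9* (229 to 263 CPM) passed in no comparison, and the VISTA partner *Selplg* was lower in B6 CD4+ than in B6 CD8+ T cells (−0.67). In strain comparisons 4 genes were higher and 1 lower in CD8.1 T cells, 1 (*Lgals3*, 2.11) was higher in CD8.2 T cells, and the interaction passed for 0 of 11 by edgeR. Backgrounds were 12.8%, 7.94% and 1.87% of tested genes.

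A further list held 17 inhibitory receptors and related surface or adaptor molecules, of which 14 were tested. The list shares *Ctla4* with the regulatory T cell markers and *Klrg1* with the memory markers. In B6 mice 7 were higher and 4 lower in CD4+ T cells, and in CD8Dual mice 9 were higher and 4 lower in CD8.1 T cells, with medians of 0.12 and 0.52. Of all tested genes, 23.1% and 28.7% were called. The 4 lower in B6 CD4+ T cells were *Cd72*, an inhibitory receptor best known in B cells, and *Nt5e*, *Lax1* and *Crtam*, which encode an ectoenzyme, an adaptor and an adhesion receptor. *Klrg1*, a receptor for cadherins on differentiated T cells, and *Cd200r1*, the receptor for CD200, led the helper side (5.22 and 3.58 in B6 mice, 5.92 and 2.72 in CD8Dual mice). *Klrg1* held 0 to 2 counts in B6 CD8+ samples and 0 to 7 in CD8.2 samples. Its changes thus rest on values near the floor. *Crtam* and *Cd72* led the cytotoxic side (−2.82 and −1.88 in B6 mice, −2.76 and −1.28 in CD8Dual mice). *Ctla4* averaged 9.13 CPM in B6 CD4+ and 1.16 CPM in B6 CD8+ T cells, and 24.4 CPM (CD8.1) and 4.04 CPM (CD8.2) in CD8Dual mice, and so was higher in the helper lineage and in both CD8Dual groups. CD8.1 T cells had 6 higher and 1 lower against B6 CD4+ T cells, with *Entpd1* (2.21) and *Klrg1* (2.13) largest and *Pecam1* lower (−0.36). CD8.2 T cells had 1 higher (*Ctla4*, 1.79) and 1 lower (*Cd6*, −0.49) against B6 CD8+ T cells. Backgrounds were 12.8% in the helper and 7.94% in the cytotoxic strain comparison, and 1.87% in the interaction. The interaction passed for *Entpd1* (1.50, adjusted P = 0.0287, edgeR) and *Nt5e* (0.92, adjusted P = 0.0109, edgeR), which encode the ectoenzymes CD39 and CD73 that turn ATP into adenosine. For both it had the sign of the *Tigit* interaction.

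Genes for signalling proteins close to these receptors were called about as often between lineages as genes at large, 4 of 16 in either strain against backgrounds of 23.1% and 28.7%. Of the 16, 2 were higher and 2 lower in B6 CD4+ than in CD8+ T cells, 3 higher and 1 lower in CD8.1 than CD8.2 T cells, 0 higher and 2 lower in CD8.1 than B6 CD4+ T cells, and 0 passed by edgeR in the cytotoxic strain comparison or the interaction. The lineage medians were 0.03 and 0.07, and backgrounds of the helper and cytotoxic strain comparisons were 12.8% and 7.94%. *Ptpn6* (SHP-1) averaged 194 CPM in B6 CD4+ and 292 CPM in B6 CD8+ T cells (−0.59, adjusted P = 0.00246, edgeR), and *Ptpn11* (SHP-2), at 71.2 to 88.7 CPM, passed in no comparison. *Ptpn22* was lower in the helper lineage in both strains (−0.96 and −0.83), and the adaptor *Dok2* higher (0.34 and 0.67). *Dgka* was higher in B6 CD4+ than in CD8+ T cells (0.28), and *Csk* higher in CD8.1 than CD8.2 T cells (0.33). *Dgka* (−0.36) and *Pag1* (−0.33) were the 2 lower in CD8.1 than B6 CD4+ T cells.

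Transcription factors known to act on such receptor genes mostly passed the test between lineages. Of 16, which include the regulatory T cell marker *Ikzf2* and the memory marker *Eomes*, 9 were higher and 3 lower in B6 CD4+ than in CD8+ T cells, and 12 higher and 2 lower in CD8.1 than CD8.2 T cells, with medians of 0.52 and 0.55. Of all tested genes, 23.1% and 28.7% were called. *Maf* led the helper side in both strains (4.66 and 4.39), with *Tox2* next in B6 mice (4.33) and *Ikzf2* (Helios) in CD8Dual mice (3.47), while *Tox* was higher in the helper lineage by 0.47 and 0.60. *Tox2* held 1 to 3 counts in B6 CD8+ samples, so its changes against them rest on values at or below the floor. The T-box factors *Tbx21* (T-bet) and *Eomes* led the cytotoxic side (−4.46 and −3.90 in B6 mice, −3.32 and −2.98 in CD8Dual mice). In CD8.2 against B6 CD8+ T cells *Tox2* (2.34), *Prdm1* (1.19) and *Irf4* (0.99) were higher and *Tbx21* was lower (−1.18, adjusted P = 0.000236, edgeR). In CD8.1 against B6 CD4+ T cells 5 were higher, with *Ikzf2* (1.81) and *Tox2* (1.00) largest, and 1, *Bach2*, was lower (−0.42). *Ikzf2* was the 1 gene of the list that passed in the interaction (2.65, adjusted P = 0.00431, edgeR). Backgrounds were 7.94% in the cytotoxic and 12.8% in the helper strain comparison, and 1.87% in the interaction.

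The genes whose pattern over the 12 samples was most like that of each member were found by Pearson's r of log2 CPM over the 13117 other tested genes, as a description, since the 12 samples fall into 4 groups and share their libraries. *Pdcd1* was closest to *Tnfrsf4* (OX40, r = 0.995), *Map6* (0.991) and *Il2ra* (CD25, 0.988). *Tigit* was closest to *C1qtnf6* (0.968), *Dusp4* (0.955) and *Osbpl3* (0.950), and *Lag3* to *Ccr7* (0.957), *Bambi-ps1* (0.953) and *Sgms1* (0.951). Among these, the T cell growth receptor gene *Il2ra* was itself a regulatory T cell marker in the list above. *Cd226* was closest to *Tlr12* (0.993), *Cnr2* (0.992) and *Agpat4* (0.989), *Cd160* to *Chsy1* (0.990), *St6galnac4* (0.988) and *Plac8* (0.986), and *Cd96* to *Pde7a* (0.983), *AB124611* (0.983) and *Snai3* (0.979). *Btla* was closest to *Ppp2r1b* (0.972), *Ptprf* (0.969) and *Gm42372* (0.968). Likeness was lowest for the members with the least difference or the fewest counts, *Vsir* (*Pxn* 0.934, *Dis3l2* 0.929 and *Ino80b* 0.925) and *Havcr2* (*Hnrnpk* 0.932, *Sesn1* 0.932 and *Tbc1d14* 0.929).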

How the data were processed

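The authors aligned read pairs to mm10 with STAR and counted them by gene with RSEM. The deposited values are raw counts, whole numbers that had not been normalized. The submitters' processing notes also list limma. Versions, annotation release and use of strand are not given in the sources used here. From the counts, edgeR 4.0.16 in R 4.3.3 (TMM, filterByExpr with its default minimum count of 10, glmQLFit and glmQLFTest) was fitted across all genes with 1 mean for each of 4 groups, 12 samples in all, and Benjamini-Hochberg adjusted P values were taken over the 13118 tested genes. A call was an adjusted P under 0.05. Intervals are 95%. Total counts were 18667474 to 37110502 per sample, and the common biological coefficient of variation was 11.2%. Replicates of a group differed by a chi-square of 8.21 to 79.5 per gene, and none repeated another library.

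Lengths and positions came from GENCODE M21 (GRCm38), where 49326 of the 49585 identifiers were found, 43749 with the same version (not *Btla*, *Tigit* and *Cd226*), so values per kilobase rest on lengths that may differ from those of the authors. Ratios used reads per kilobase with 0.5 added to each count. Correlations used log2 CPM with a prior count of 2. Promoter sequences are RefSeq's. Replicate numbers come from the labels. Deviations from group means correlated at 0.126 to 0.257 between B6 samples of the same number (others −0.0864 on average). No label states a pairing, and the main fit used none.

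Named genes were, by rule, the 9 members, the 3 genes most like each, the 2 largest called changes in each direction of each list and comparison, and some partner genes. Members and lists were chosen with earlier results of these data known. *Gm42418*, *Ccl5*, *Klre1*, *Irf4*, the marker genes given beside results and the regulatory T cell sum without *Itgae* were chosen after their values were seen. *Pvrig* and *Cd244a* had no row under these symbols. Alternatives were DESeq2 1.42.0 (size factors, or its Wald test), limma-voom (limma 3.58.1), no filter, a mean of at least 1 CPM, only the groups compared, replicate blocks, the 5-fold limits, and each sample left out. Figures were drawn with matplotlib 3.10.9.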

Additional observations from a re-analysis of the deposited data

Results flagged for a closer look

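For 3 members the lineage change differed between the strains by the interaction of edgeR's quasi-likelihood fit. *Tigit* was higher in CD8.1 than CD8.2 T cells and not called between B6 CD4+ and CD8+ T cells, an interaction of 3.40 on the log2 scale (SE 0.422, adjusted P = 0.000267, edgeR). *Cd160* was lower in the helper lineage in both strains, and less so in CD8Dual mice, an interaction of 1.90 (SE 0.309, adjusted P = 0.00289, edgeR). *Lag3* was higher in the helper lineage in both strains, and less so in CD8Dual mice, an interaction of −1.24 (SE 0.246, adjusted P = 0.0131, edgeR). All 3 calls held in each of 18 other fits, and under the limits of 5-fold and an unadjusted P under 0.05 *Tigit* alone passed.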

How the results depend on the processing

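The number of members called was 6 in B6 mice, 8 in CD8Dual mice, 3 in each strain comparison and 3 in the interaction. The shares of all tested genes were 23.1%, 28.7%, 12.8% (helper lineage), 7.94% (cytotoxic lineage) and 1.87%. Shares under other fits are not given here. The counts thus cannot tell a change in the members from one across all genes. The number of members moved by over 1.5 times in 3 ways. Under the limits of 5-fold and an unadjusted P under 0.05 it was 3, 2, 0 (helper lineage), 0 (cytotoxic lineage) and 1. The shares of all genes under these limits were 3.29%, 3.32%, 0.61%, 0.579% and 1.16%. With only the groups compared in the fit it was 1 in the helper strain comparison, where *Tigit* held and *Cd226* and *Cd160* did not (adjusted P = 0.164 and 0.114, edgeR). limma-voom gave 2 there, without these 2 and with *Pdcd1* (adjusted P = 0.0398), which also passed without a filter (adjusted P = 0.0187, edgeR). *Havcr2* in B6 mice passed under the DESeq2 Wald test (2.68, adjusted P = 0.0374) and without a filter (2.57, adjusted P = 0.0171, edgeR), and *Cd226* passed between CD8.2 and B6 CD8+ T cells with only those groups in the fit (adjusted P = 0.0159, edgeR). Leaving out each sample gave 6 to 8, 6 to 8, 1 to 3, 3 to 4 and 3 to 3 members, and the 1 in the helper strain comparison, *Tigit*, came without B6 CD4 replicate 1, B6 CD4 replicate 2 or CD8.2 replicate 1. The replicate block gave 7, 8, 3, 3 and 3, and apart from *Havcr2* in B6 mice it changed no call. Samples of the same number were less alike in CD8Dual than in B6 mice (mean correlation of deviations 0.0685 and 0.174). Between the strains the mean was −0.113 in the helper and −0.0461 in the cytotoxic lineage.

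Changes of sign occurred in values that had not been called. *Vsir* between CD8.2 and B6 CD8+ T cells (0.00) was −0.000693 with DESeq2 size factors, −0.000719 in the DESeq2 Wald test, −0.00113 with a mean of at least 1 CPM, and −0.10 to 0.0434 with a sample left out. *Cd96* in the helper strain comparison was −0.00094 without a filter and −0.0426 to 0.0298 with a sample left out. With a sample left out, *Btla* in CD8.2 against B6 CD8+ T cells was −0.0261 to 0.20, *Tigit* in B6 mice −0.13 to 0.42, and the interactions −0.13 to 0.26 for *Pdcd1*, −1.61 to 0.29 for *Havcr2* and −0.0499 to 0.21 for *Cd226*. The cause of these changes was not tested. With the longest transcript as length, *Cd96* to *Cd226* was 2.39 in B6 CD8+ and 2.07 in CD8.2 T cells, a shift common to all groups by construction. Depth limits *Havcr2*, at 0 to 29 counts per sample.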
